A study of Mus musculus with 18 samples.

Results

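Invariant natural killer T (iNKT) cells of the thymus that carry the NKT17 programme were compared with those that carry the NKT2 programme, in WT mice. The comparison holds 6 of the 18 RNA-seq libraries of the series, 3 of WT NKT17 cells and 3 of WT NKT2 cells, and the members were chosen by the genotype and subset that their labels give. All 11118 genes with enough reads to be tested were compared, and the same contrast in the 6 NKT17 and NKT2 libraries of SKG mice, which share no library with it, was set beside it.

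iNKT cells are T cells whose nearly invariant T cell receptor (TCR) binds lipids presented by CD1d, and they acquire effector programmes while still in the thymus. NKT2 cells are known for making IL-4 at rest and for high levels of the transcription factor PLZF, which Zbtb16 encodes. NKT17 cells make IL-17, much as Th17 cells and IL-17-producing γδ T cells do. NKT1 cells, the remaining subset, depend on T-bet, the product of Tbx21, and make interferon-γ.

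Both genotypes came from the same crosses of BALB/cJ with SKG mice, a strain whose Zap70 mutation weakens TCR signalling, and the WT mice lacked that mutation. The labels name the thymus as the tissue and give neither age nor treatment, and pooling of mice is not stated. Thymocytes enriched for iNKT cells were sorted with CD1d tetramers loaded with α-galactosylceramide: NKT17 cells as CD49a-negative, ICOS-high and Sdc-1-positive, and NKT2 cells as CD49a-negative, Sdc-1-negative, ICOS-high, CD4-high and TCRβ-high. Sdc1 and Cd4 were therefore used to separate the groups, and their differences are no finding. Poly(A) RNA was amplified as full-length cDNA before sequencing, so levels are read counts without molecular identifiers. Each library is called by its group and replicate, and values are given in the order of replicates 1 to 3. Their unit is CPM, the reads of a gene relative to the scaled total of its library. CPM is not corrected for gene length, so a higher CPM of one gene than of another says only that it drew more reads.

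The 6 libraries held 4784160 to 6803776 counts, and replicates of a group differed by more than sampling noise. Replicate 1 of both groups held Xist (241 CPM in NKT17 and 385 CPM in NKT2) and no read of the Y-linked Eif2s3y. Replicates 2 and 3 of both held Eif2s3y at 78.3 to 114 CPM and Xist at no more than 0.699 CPM. The replicates thus differed in this respect in the same way in both groups. P-values measure the spread between replicate libraries, estimated jointly over all 18 libraries of the series and not over these 6 alone.

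The labels were first compared with marker lists, which were written with earlier results of these data known. Sdc1 in the NKT17 list and Cd4 and Icos in the NKT2 list were part of the gates, so these genes are no check of the labels. All 10 NKT17 markers were higher in the libraries labelled NKT17, and their summed level was 5997 to 6296 CPM there against 25.96 to 27.00 CPM in NKT2. Of 10 NKT2 markers, 6 were lower in NKT17 (Il4, Il13, Plac8, Folr4, Slamf6 and Cd4) and 4 were not called (Gata3, Zbtb16, Icos and Il17rb). The summed level of the NKT2 list was 1758 to 1805 CPM in NKT17 and 3735 to 4469 CPM in NKT2. The 15 NKT1 markers summed to 325 to 385 CPM in NKT17 and 339 to 479 CPM in NKT2, against 12735 to 15153 CPM in the WT NKT1 libraries. Il2rb alone held 278 to 321 CPM of this in NKT17 and 208 to 248 CPM in NKT2. Of the 15 markers, 9 were called lower in NKT17 and 2 higher, so the similar sums do not show similar levels of the single markers. Of the markers of other cells, Rag1, Rag2 and Dntt (double-positive thymocytes), Pax5 (B cells), S100a8, S100a9 and Siglech (myeloid cells and plasmacytoid dendritic cells), Krt5 and Krt14 (epithelium) and Foxp3 (regulatory T cells) had no read in any of the 6 libraries. The 12 B cell and plasma cell markers summed to 13.9 to 22.1 CPM in NKT17 and 0.647 to 1.75 CPM in NKT2. The 15 myeloid and dendritic cell markers summed to 235 to 325 CPM in NKT17 and 156 to 228 CPM in NKT2, and most of this was Cst3. Of the 5 tested genes of that list only Cst3 was higher in NKT17. The other 4 had a negative log2 fold change, NKT17 over NKT2, 1 of them called, and the median of the 5 was -1.72. Members of the same lists that were called higher in NKT17 included Cd79b (B cells), at 10.2, 9.91 and 7.55 against 0, 0.350 and 0 CPM, and Cd8b1 (double-positive thymocytes), at 1.76, 11.8 and 6.04 against 1.43, 1.049 and 1.13 CPM. Epcam (epithelium) was at 16.6, 7.65 and 12.5 against 4.70, 2.45 and 3.72 CPM, and Cst3 (myeloid cells) at 261, 316 and 222 against 141, 202 and 172 CPM, also called higher. The call of Cd8b1 was lost without NKT17 replicate 2 (adjusted p = 0.129). The call of Cst3 was lost without NKT17 replicate 2, without NKT2 replicate 1 and with upper-quartile scaling (log2 fold changes 0.50, 0.51 and 0.58). The part of these other cells in the results below was not tested. In sorted bulk cells, a lower level cannot be told apart as fewer cells with the RNA or less RNA in each cell.

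A gene was called when its Benjamini-Hochberg adjusted p from edgeR's quasi-likelihood test was under 0.1 and its fold change at least 1.5, the thresholds of the study. By this rule 1226 genes (11.0%) were higher and 997 (8.97%) lower in NKT17 than in NKT2. The 3 libraries of one group all lay above or below those of the other at 4135 genes (37.2%), and the median fitted log2 fold change over all tested genes was 0.01. Fold changes below are on the log2 scale, NKT17 over NKT2, with the standard error of the fit after ±, and adjusted p-values are over all 11118 genes.

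**Figure D1:**
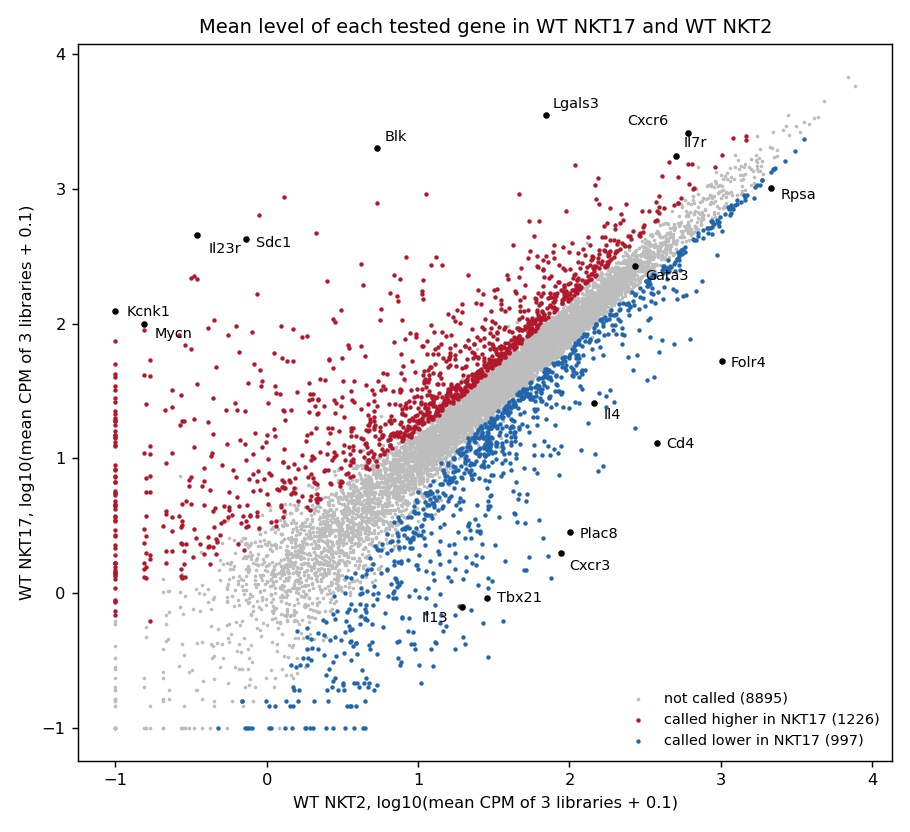
Mean level of the 11118 tested genes in WT NKT2 (x axis) and WT NKT17 (y axis), each as log10 of the mean CPM of 3 libraries plus 0.1, with the 1226 genes called higher in red and the 997 called lower in blue. Kcnk1 and Mycn sit at or near no reads in NKT2, whereas Plac8 and Cxcr3 were low but detected in all 3 NKT17 libraries.

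Where the higher group averaged 50 CPM or more and the libraries did not overlap, the 12 largest rises included, by falling fold change, Kcnk1, Dkk3, Il23r, Mycn, Hmga2-ps1, Serpinb1a, Mmp25, Il17re, 1300014I06Rik and Sdc1. Il23r encodes the specific chain of the IL-23 receptor, which sustains IL-17-producing cells. It was at 457, 455 and 451 CPM in NKT17 and 0.409, 0.175 and 0.162 CPM in NKT2, at least 839.6-fold higher in NKT17 (adjusted p = 2.12e-17) when its 1 or 2 counts per NKT2 library are set to a floor of 3 counts. Its level varied little among the NKT17 libraries and lay under 1 CPM in every NKT2 library.

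Il17re, a receptor chain through which IL-17C acts, was at 194, 204 and 248 CPM in NKT17 and 0.409, 0 and 0.323 CPM in NKT2. Mycn, a transcription factor of the Myc family, was at 70.1, 93.7 and 134 CPM in NKT17 and 0, 0 and 0.162 CPM in NKT2, at least 184-fold higher (adjusted p = 4.78e-12). Myc itself went the other way, with 74.97, 99.5 and 77.3 CPM in NKT17 and 170.3, 243 and 191 CPM in NKT2 (log2 fold change -1.27 ± 0.14, adjusted p = 2.71e-07). Each group held the higher level of one member of that family. Libraries did not overlap for either gene, as at 37.2% of all genes, and for Mycn this was a condition of the ranking. Serpinb1a, an inhibitor of neutrophil serine proteases, was at 211, 262 and 206 CPM in NKT17 and 0, 0.524 and 0.162 CPM in NKT2. Mmp25, a membrane-bound matrix metalloproteinase, was at 195, 171 and 283 CPM in NKT17 and 0, 0 and 0.647 CPM in NKT2. 1300014I06Rik was at 703, 611 and 588 CPM in NKT17 and 1.23, 0.350 and 0.808 CPM in NKT2 (log2 fold change 9.64 ± 0.40, adjusted p = 2.03e-11). Its product is not named in the files.

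Some of these counts could hold reads of another gene. Hmga2-ps1 is a pseudogene of Hmga2. The pseudogene was at 99.8, 86.6 and 83.9 CPM in NKT17 and 0, 0 and 0.162 CPM in NKT2, whereas Hmga2 was at 8.98, 4.70 and 3.57 CPM in NKT17 and 7.97, 4.54 and 5.82 CPM in NKT2, so the parent gene did not show the same pattern. Ccr9, among the largest falls, has an annotated interval that overlaps Slc6a20a and Lztfl1 on the opposite strand, and the sources do not say whether reads were counted by strand.

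The 12 largest falls under the same limits were Tspan9, Cxcr3, Pls1, Cdh1, Plac8, Cd4, Gabrr2, Ccr9, Ptpn5, Folr4, Ms4a4b and Ssbp2. None of them was at the floor of 3 counts in all NKT17 libraries. Folr4, a folate receptor family protein of the T cell surface, was at 17.6, 83.5 and 56.1 CPM in NKT17 and 819, 1066 and 1150.2 CPM in NKT2 (log2 fold change -4.26 ± 0.70, adjusted p = 0.000597). Cdh1, which encodes E-cadherin, was at 0.781, 2.96 and 0.412 CPM in NKT17 and 45.99, 60.6 and 47.2 CPM in NKT2. Pls1, an actin-bundling plastin, was at 0.976, 3.30 and 1.10 CPM in NKT17 and 60.1, 80.04 and 74.8 CPM in NKT2. Gabrr2, a subunit of GABA-gated chloride channels, was at 0, 2.96 and 2.33 CPM in NKT17 and 50.9, 48.9 and 61.4 CPM in NKT2 (log2 fold change -4.86 ± 0.46, adjusted p = 1.03e-07). Ptpn5, a tyrosine phosphatase best known from neurons, was at 7.03, 12.5 and 4.53 CPM in NKT17 and 146, 114 and 199.8 CPM in NKT2. Ssbp2, a cofactor of LIM-domain transcription factors, was at 2.54, 4.87 and 2.74 CPM in NKT17 and 48.8, 73.4 and 66.4 CPM in NKT2. In each of these 6 genes the lowest NKT2 library was several times the highest NKT17 library.

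The promoters of the genes with the largest differences are shown because regulators of transcription bind DNA there. They are those of Kcnk1 and Il23r among the largest rises and of the 3 largest falls at 50 CPM or more, each as the 250 bases before the transcription start (RefSeq, GRCm38.p6), written 5′ to 3′ on the gene's strand. Capitals mark AGGTCA, the half-site of nuclear receptors, on either strand. Searched as well on both strands were AGATAA for the factors related to Gata3, TGACTCA for AP-1 and AGGTGTGA for T-box factors, and a window without capitals holds none of the 4.
Kcnk1 (chr8:125994852-125995101, plus strand): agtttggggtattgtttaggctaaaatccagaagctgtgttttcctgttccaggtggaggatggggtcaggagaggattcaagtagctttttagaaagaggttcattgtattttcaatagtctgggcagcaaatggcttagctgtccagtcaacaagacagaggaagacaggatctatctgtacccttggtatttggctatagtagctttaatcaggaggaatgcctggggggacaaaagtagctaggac
Il23r (chr6:67491856-67492105, minus strand): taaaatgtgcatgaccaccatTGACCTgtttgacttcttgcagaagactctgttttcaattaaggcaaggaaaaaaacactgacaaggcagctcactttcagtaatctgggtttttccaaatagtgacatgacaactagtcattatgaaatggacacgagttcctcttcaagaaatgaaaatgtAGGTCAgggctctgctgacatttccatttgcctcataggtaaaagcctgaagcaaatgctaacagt
Tspan9 (chr6:128143579-128143828, minus strand): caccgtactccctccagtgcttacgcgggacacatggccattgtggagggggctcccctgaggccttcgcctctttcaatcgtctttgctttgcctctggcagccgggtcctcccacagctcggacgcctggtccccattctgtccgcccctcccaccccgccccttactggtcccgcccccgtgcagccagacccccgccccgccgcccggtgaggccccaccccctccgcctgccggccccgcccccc
Cxcr3 (chrX:101734148-101734397, minus strand): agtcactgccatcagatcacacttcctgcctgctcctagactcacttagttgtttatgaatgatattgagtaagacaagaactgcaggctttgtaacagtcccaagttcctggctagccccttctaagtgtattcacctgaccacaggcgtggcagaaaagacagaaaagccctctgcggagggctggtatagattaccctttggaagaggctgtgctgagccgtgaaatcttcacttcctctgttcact
Pls1 (chr9:95845280-95845529, minus strand): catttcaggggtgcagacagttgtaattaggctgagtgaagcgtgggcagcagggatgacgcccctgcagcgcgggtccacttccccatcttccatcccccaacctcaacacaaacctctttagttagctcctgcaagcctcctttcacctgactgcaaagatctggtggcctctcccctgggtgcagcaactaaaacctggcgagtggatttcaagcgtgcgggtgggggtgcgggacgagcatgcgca
Of these 5 windows, only that of Il23r held any of the 4 motifs: AGGTCA on the opposite strand starting 229 bases before the start, and on the gene's strand 66 bases before it. Among the 8056 tested genes with an entry, AGGTCA on either strand was in 10.4% of such windows, against 14.4% of the 884 genes called higher and 8.91% of the 718 called lower. AGGTGTGA was in 0.658% of windows of tested genes, 0.339% of those called higher and 1.39% of those called lower. AGATAA was in 5.75%, 6.22% and 7.38%, and TGACTCA in 2.73%, 4.19% and 3.48%, in the same order. These shares are descriptions of short letter strings, and no binding was measured.

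**Figure D2:**
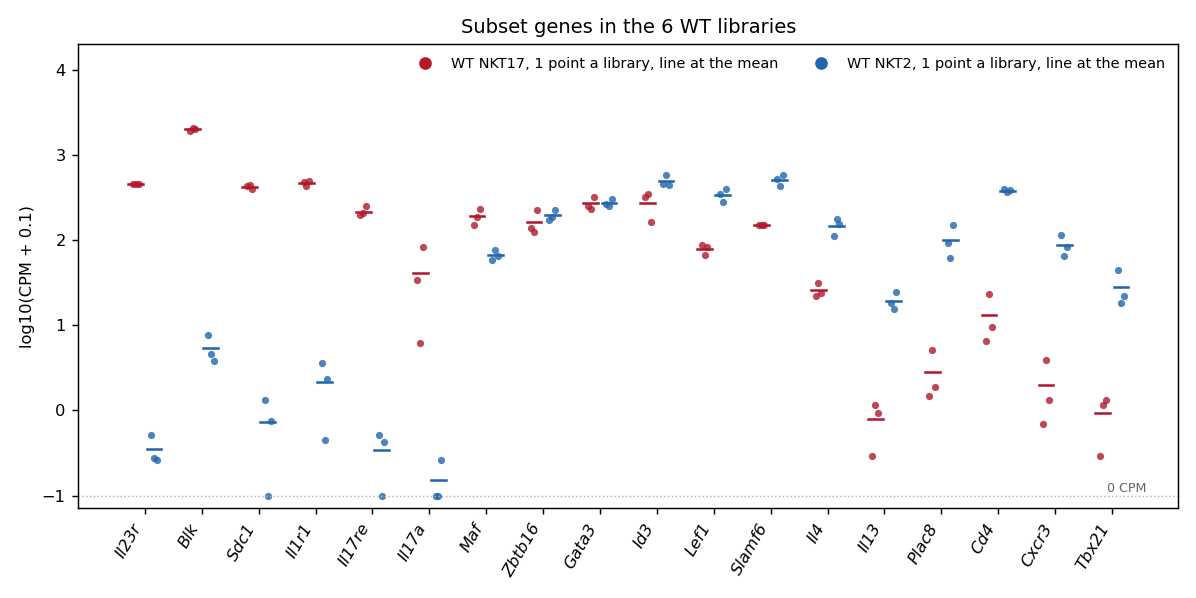
Level of 18 genes in each of the 6 WT libraries, as log10 of CPM plus 0.1, with NKT17 in red, NKT2 in blue and a line at the mean of each group. The red and blue points overlap for Zbtb16 and Gata3, and for no other of the genes shown.

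The genes of the type 17 axis (cytokines, their receptors and signalling genes of IL-17-producing cells) were mostly higher in NKT17. Of 24 tested, 14 (58.3%) were called higher and 4 lower, with a median log2 fold change of 1.01. Among the cytokines, Il17a was at 33.97, 6.09 and 83.3 CPM in NKT17 and 0, 0 and 0.162 CPM in NKT2, at least 76.04-fold higher (adjusted p = 0.000432). Il22, which acts on epithelium, was at 6.44, 1.22 and 18.7 CPM in NKT17 and 0, 0 and 0 CPM in NKT2, at least 16.2-fold higher (adjusted p = 0.000736). The NKT17 libraries differed widely in both, replicate 2 being lowest and replicate 3 highest, whereas Il23r was nearly level in them. Ccr6, a receptor that draws IL-17-producing cells to CCL20, was also lowest in replicate 2, with 18.4, 3.65 and 14.1 against 0, 0.524 and 0.162 CPM.

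Among receptors of the axis, Il1r1, through which IL-1 acts, was at 481, 425 and 494 CPM in NKT17 and 3.47, 0.350 and 2.26 CPM in NKT2 (log2 fold change 7.87 ± 0.49, adjusted p = 1.95e-08). The chains of the IL-18 receptor rose as well. Il18r1 was at 229, 209 and 309 against 63.6, 69.9 and 65.96 CPM, and Il18rap at 78.3, 78.9 and 99.1 against 8.58, 6.12 and 11.5 CPM. Il17ra, the shared receptor chain of IL-17 cytokines, was at 76.7, 82.6 and 94.98 against 60.9, 52.6 and 59.3 CPM; its log2 fold change of 0.56 ± 0.13 fell short of the fold-change minimum. In contrast, receptors for IL-6 and IL-21, cytokines that promote Th17 differentiation, were lower in NKT17. Il6ra was at 26.4, 32.3 and 19.4 against 179, 191 and 220.3 CPM (log2 fold change -2.92 ± 0.24, adjusted p = 2.78e-08). Il21r was at 14.8, 10.96 and 12.6 against 46.2, 47.2 and 48.7 CPM (log2 fold change -1.89 ± 0.13, adjusted p = 2e-10). Tgfbr3, a co-receptor of TGF-β, was at 17.2, 17.6 and 17.98 against 70.5, 44.4 and 68.2 CPM. Il21 itself was low in both groups, with 0.390, 0 and 0.549 against 6.34, 2.97 and 4.69 CPM. Blk, a Src-family kinase that B cells and IL-17-producing γδ T cells share, was at 1925, 2083 and 1998 CPM in NKT17 and 7.56, 4.54 and 3.72 CPM in NKT2 (log2 fold change 8.59 ± 0.32, adjusted p = 7.22e-12). The membrane proteins Tmem176a and Tmem176b, which lie side by side and are known from IL-17-producing lymphocytes, rose by 7.21 ± 0.22 and 6.33 ± 0.24. Both scavenger receptor genes known from IL-17-producing γδ T cells were also higher. 5830411N06Rik was at 1552, 1161 and 1806 against 166, 81.1 and 80.99 CPM. Cd163l1 was at 133, 130.1 and 192 against 13.3, 2.27 and 16.5 CPM. Of the 11 markers in the list of γδ and MAIT cells these 2 could be read in the count table, and a content of γδ T cells was not tested.

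Il4, the cytokine that marks NKT2 cells, was at 21.9, 31.3 and 24.02 CPM in NKT17 and 110.2, 175 and 152 CPM in NKT2 (log2 fold change -2.50 ± 0.31, adjusted p = 7.23e-06). It was thus lower in all NKT17 libraries without being absent from them, and the WT NKT1 libraries held 7.73 to 25.3 CPM. Il13, its partner in type 2 responses, was at 0.195, 1.04 and 0.823 against 18.2, 15.4 and 24.4 CPM (log2 fold change -4.74 ± 0.59, adjusted p = 3.11e-06). Over the 20 tested cytokine genes of type 2 and other families, 4 were called higher and 6 lower, with a median of -0.26. The 4 that rose all belong to the TNF family. Ltb was at 1222, 1419 and 1049.5 against 448, 610.1 and 499 CPM. Lta was at 60.7, 67.1 and 70.8 against 17.2, 21.7 and 26.03 CPM, and Tnf at 40.6, 37.9 and 34.6 against 4.29, 6.82 and 5.01 CPM. Tnfsf14, which encodes LIGHT, was at 104, 118 and 97.03 against 9.40, 6.29 and 7.60 CPM. Ltb and Lta form the lymphotoxins that organise lymphoid tissue, and the fold changes ran from 1.24 ± 0.12 for Ltb to 3.78 ± 0.25 for Tnfsf14. Other TNF family members went down. Tnfsf10 (TRAIL) was at 11.3, 13.6 and 8.92 against 20.03, 24.8 and 16.7 CPM. Fasl was at 2.15, 2.61 and 2.33 against 10.0, 16.1 and 15.7 CPM and was called lower at a log2 fold change of -2.56. Tnfsf11 (RANKL), at 106, 54.9 and 102 against 93.00, 99.8 and 96.7 CPM, was not called. Neither were Tnfsf8 (-2.32) and Cd40lg (-0.52). Csf1, a growth factor of macrophages, was nearly absent from NKT17, with 0, 0.696 and 0.823 against 39.7, 16.8 and 23.4 CPM.

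Of 53 tested transcription factors of lymphocyte lineages, 17 (32.1%) were called higher and 9 (17.0%) lower, against 11.0% and 8.97% of all genes. The median was 0.09. Zbtb16 was at 139.6, 123 and 224 CPM in NKT17 and 173, 184 and 226 CPM in NKT2 and was not called (log2 fold change -0.26 ± 0.19, adjusted p = 0.388). Gata3, the factor of type 2 responses, was at 254, 232 and 318 CPM in NKT17 and 261, 248.68 and 299 CPM in NKT2 (log2 fold change -0.01 ± 0.13, adjusted p = 0.979), and its libraries overlapped as well. Maf and Rora are transcription factors that promote the IL-17 programme. Maf was at 149.9, 187 and 233 against 57.8, 76.9 and 64.7 CPM, and Rora at 129, 148 and 173 against 48.2, 32.3 and 25.7 CPM. Sox13, a factor of γδ T cells, was at 344, 276 and 337 against 181, 138 and 104 CPM. Ahr, the aryl hydrocarbon receptor that promotes IL-22, was at 74.8, 49.6 and 70.7 against 17.2, 9.96 and 11.2 CPM. The libraries of the 2 groups did not overlap at any of these 4 genes, as was so at 37.2% of all genes. The 4 were chosen after their values were seen. Nfil3 (66.96, 33.7 and 136 against 1.02, 0.874 and 2.91 CPM), Stat4 (24.6, 25.04 and 43.9 against 2.45, 1.049 and 0.970 CPM), Batf (89.02, 101 and 73.3 against 49.9, 39.1 and 30.1 CPM) and Runx2 (17.6, 13.9 and 27.3 against 0, 0.699 and 0 CPM) rose as well. Stat4 relays IL-12 and IL-23 signals, and Batf is an AP-1 factor needed for Th17 cells.

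Lef1, a Wnt pathway factor, was at 86.7, 67.1 and 83.7 CPM in NKT17 and 344, 281 and 399 CPM in NKT2 (log2 fold change -2.11 ± 0.20, adjusted p = 4.21e-08). Id3, which restrains E proteins, was at 318, 344 and 161 against 458, 584 and 440.2 CPM. Id3 was called at log2 fold change -0.85 ± 0.22, adjusted p = 0.00987, but without NKT17 replicate 3, the lowest library, the log2 fold change was -0.58 and fell under the fold-change minimum. Tcf7, the relative of Lef1, was at 337, 273 and 288 against 505.05, 359.8 and 397 CPM and also stayed under the minimum (log2 fold change -0.49 ± 0.15, adjusted p = 0.0204). Ets2 and Hivep3 fell, with 12.3, 12.00 and 12.9 against 63.97, 48.6 and 61.6 CPM and 10.2, 5.74 and 8.51 against 66.2, 24.1 and 32.98 CPM. Tbx21, the NKT1 factor, was at 0.195, 1.04 and 1.24 CPM in NKT17 and 44.6, 18.2 and 21.99 CPM in NKT2 (log2 fold change -4.97 ± 0.64, adjusted p = 6.45e-05). Its mean in NKT2 was 5.15% of that in WT NKT1 libraries, where it stood at 520 to 565 CPM.

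Cytokine receptors were split, 8 of 27 (29.6%) being higher and 6 (22.2%) lower (median 0.36). The shares over all genes were 11.0% and 8.97%. Il7r, the receptor of the survival cytokine IL-7, was at 1595, 1823 and 1779 CPM in NKT17 and 475, 569 and 472 CPM in NKT2 (log2 fold change 1.78 ± 0.10, adjusted p = 9.79e-12). Il2ra, the high-affinity chain of the IL-2 receptor, was at 93.3, 93.7 and 100.5 CPM in NKT17 and 0.818, 0.175 and 2.42 CPM in NKT2 (log2 fold change 6.32 ± 0.42, adjusted p = 1.04e-09). It was not restricted to NKT17, since the WT NKT1 libraries held 25.3 to 31.9 CPM. Il2rb, the chain shared by IL-2 and IL-15, differed little at 294, 278 and 321 against 240.4, 208 and 248 CPM. Ifngr1, through which interferon-γ acts, was at 755, 570.4 and 734 against 89.7, 103 and 93.9 CPM (log2 fold change 2.85 ± 0.12, adjusted p = 1e-13). Ifnar1, a chain of the type I interferon receptor, was at 74.4, 43.6 and 53.9 against 101, 96.1 and 101 CPM. Il17rb, through which IL-25 acts and which has been used to mark NKT2-type cells, was at 148, 177 and 179.5 CPM in NKT17 and 217, 245 and 371 CPM in NKT2 and was not called (adjusted p = 0.21). In a fit of these 6 libraries alone it was called lower, at -0.71 and an adjusted p of 0.0176, or at -0.68 and 0.000118 with the replicate pairing as a block.

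The 31 genes of chemokine receptors and cell migration were divided evenly. In each direction 12 (38.7%) were called, against 11.0% higher and 8.97% lower of all genes. Receptors that were higher in NKT17 included Ccr2, at 515, 597 and 629 against 79.3, 40.5 and 67.6 CPM, and Cxcr6, at 2303, 3176 and 2349 against 518, 681 and 631 CPM. Gpr183, the receptor of oxysterols, was at 325, 404 and 414 against 57.4, 104 and 75.5 CPM. Ltb4r1, the leukotriene B4 receptor of inflammatory cells, was at 87.7, 114 and 119.7 CPM in NKT17 and 0.204, 0.524 and 0.323 CPM in NKT2, at least 198-fold higher (adjusted p = 3.57e-12). Cd69, which retains lymphocytes in tissue by opposing S1pr1, was at 57.2, 47.5 and 98.00 against 19.6, 19.2 and 21.7 CPM, and S1pr1 itself, the receptor for exit from the thymus, at 0.195, 3.30 and 1.37 against 31.1, 25.7 and 55.4 CPM. The NKT17 libraries thus lay above those of NKT2 for Cd69 and below them for S1pr1.

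On the NKT2 side stood Ccr4 (178, 169.9 and 138 against 607, 574 and 594 CPM), Ccr7 (43.7, 48.9 and 44.1 against 255, 268 and 263 CPM), Ccr8 (3.71, 4.70 and 1.37 against 56.8, 41.6 and 37.2 CPM), Ccr9 (0, 4.00 and 3.43 against 50.3, 43.2 and 106 CPM) and Cxcr3 (0.586, 3.83 and 1.24 against 114, 64.8 and 83.1 CPM). Ccr7 draws cells to the thymic medulla and lymph nodes, Ccr9 to the thymus and gut, and Cxcr3 to sites of interferon-γ responses. Their log2 fold changes ran from -1.87 ± 0.31 for Ccr4 to -5.52 ± 0.51 for Cxcr3. Cxcr3 is also an NKT1 marker, and its mean in NKT2 was 12.0% of that in WT NKT1.

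Genes of integrins and adhesion leaned towards NKT17, with 19 of 34 (55.9%) called higher, 4 (11.8%) lower and a median of 0.73. The shares over all genes were 11.0% and 8.97%, and the 19 include Sdc1, which was part of the gate. Lgals3, a galactose-binding lectin, was at 3792, 4005 and 2751 CPM in NKT17 and 103, 57.5 and 47.4 CPM in NKT2 (log2 fold change 5.67 ± 0.40, adjusted p = 1.83e-07). S100a4, a calcium-binding protein of motile cells, was at 407, 401 and 337 against 46.6, 31.3 and 48.2 CPM, and the syndecan Sdc4 at 70.7, 40.7 and 73.02 against 0.818, 0.699 and 0.162 CPM, so that another syndecan moved with the Sdc1 of the gate. Itgb2, the β chain of LFA-1, fell slightly, with 564, 559.8 and 522 against 872, 880.1 and 957 CPM, and the tetraspanin Tspan32 fell from a mean of 622 to 76.3 CPM. Itgb3 was at 178, 147 and 145 against 194, 136 and 144 CPM and was not called (log2 fold change -0.01 ± 0.28, adjusted p = 0.988).

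**Figure D3:**
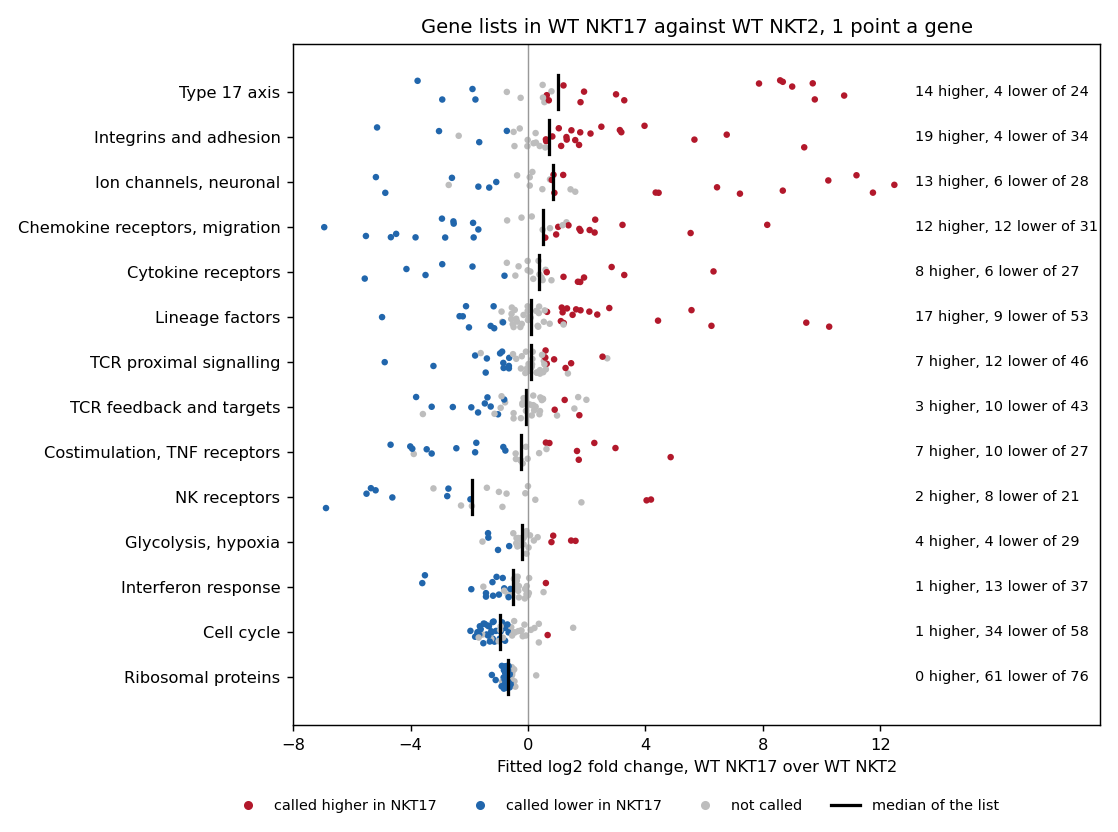
Fitted log2 fold change (x axis, WT NKT17 over WT NKT2) of every tested gene of 14 lists, 1 point a gene, red where called higher, blue where called lower and grey where not called, with a black bar at each list's median. Type 17 genes and ion channel genes reach far to the right, whereas 52 of 58 cell cycle genes and 75 of 76 ribosomal protein genes lie left of 0.

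Genes that TCR signals induce or that damp those signals gave 3 called higher and 10 called lower of 43, with a median of -0.07, and 21 of them had a positive fold change. The called shares were 6.98% and 23.3%, against 11.0% and 8.97% of all genes. Without NKT17 replicate 2 the calls were 6 higher and 8 lower, with a median of 0.09. Ubash3a, a phosphatase that restrains TCR signalling, was at 0.390, 1.39 and 2.33 CPM in NKT17 and 16.6, 20.97 and 24.7 CPM in NKT2 (log2 fold change -3.81 ± 0.30, adjusted p = 1.44e-09). Tnfrsf9, the activation receptor 4-1BB, was at 5.66, 5.56 and 4.94 against 51.9, 45.1 and 60.6 CPM. Dusp10, a phosphatase of stress kinases, was at 6.25, 8.35 and 10.7 against 58.3, 36.2 and 55.9 CPM. The inhibitory receptor gene Btla was at 20.7, 9.56 and 10.2 against 45.99, 41.1 and 43.5 CPM. Egr2, an early response factor of TCR signals that iNKT cell development needs, was at 26.9, 25.04 and 24.3 against 89.7, 59.9 and 61.3 CPM (log2 fold change -1.47 ± 0.35, adjusted p = 0.00422). Nr4a1, the early response gene that encodes Nur77, was at 74.8, 8.69 and 66.8 against 74.8, 22.4 and 61.3 CPM: its libraries overlapped, varied widely within both groups and gave no call (adjusted p = 0.961).

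Of 46 genes of proximal TCR signalling, 7 were higher (15.2%) and 12 lower (26.1%), against 11.0% and 8.97% of all genes. The 12 include Cd4, which was part of the gate. Without NKT2 replicate 1 or with upper-quartile scaling the calls were 4 and 12. Rasgrp1, which couples the TCR to Ras, was at 322, 249.36 and 351 against 61.1, 41.8 and 55.4 CPM (log2 fold change 2.54 ± 0.18, adjusted p = 4.36e-10), and Sit1, an adaptor, at 187, 238 and 189.8 against 78.9, 83.5 and 90.04 CPM. Stim1, the calcium sensor of the endoplasmic reticulum, was at 205, 206 and 216 against 114, 116 and 108 CPM. Themis, a thymocyte adaptor, fell from 45.3 to 4.88 CPM on average, and Cd28, the main costimulatory receptor, was at 155, 160.5 and 168 CPM in NKT17 and 576, 504.52 and 607 CPM in NKT2 (log2 fold change -1.80 ± 0.13, adjusted p = 3.1e-10). Csk, the kinase that restrains Src-family kinases, was at 659, 716 and 683 against 597, 731 and 700.0 CPM and was not called (adjusted p = 0.913).

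Among 27 costimulatory and TNF receptor genes, 7 (25.9%) were higher and 10 (37.0%) lower, against 11.0% and 8.97% of all genes. Tnfrsf25, the receptor of TL1A, was at 212, 217 and 216 CPM in NKT17 and 9.61, 5.77 and 6.95 CPM in NKT2 (log2 fold change 4.86 ± 0.24, adjusted p = 3.57e-12), with almost the same level in each NKT17 library. Tnfrsf21 (DR6) was at 38.7, 35.8 and 40.8 against 6.13, 9.61 and 8.24 CPM. Crtam, an adhesion receptor of activated T cells, was at 59.9, 64.7 and 54.4 against 10.2, 5.07 and 7.44 CPM. Cd96 was at 386, 483 and 448 against 126, 133 and 138 CPM. Tnfrsf4 (OX40), Cd27, Cd81, Cd200 and Cd2 were lower. Tnfrsf4 was at 0.390, 1.39 and 1.65 against 28.8, 28.5 and 35.2 CPM, and Cd27 at 99.6, 78.8 and 49.7 against 367, 469 and 398 CPM. Cd81 was at 17.8, 21.2 and 11.4 against 194, 333 and 280.0 CPM, and Cd200 at 1.37, 3.30 and 4.94 against 45.2, 46.5 and 59.8 CPM. Cd2 was at 1.76, 9.56 and 2.88 against 36.6, 42.1 and 76.1 CPM. Slamf6, a receptor through which thymocytes support iNKT development, was at 151, 151 and 151 CPM in NKT17 and 519, 434 and 585 CPM in NKT2 (log2 fold change -1.76 ± 0.31, adjusted p = 0.000727). Different members of the same receptor families therefore lay on opposite sides of the comparison.

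NK cell receptors were low in both subsets. Of 21 tested, 2 (9.52%) were called higher in NKT17 and 8 (38.1%) lower, against 11.0% and 8.97% of all genes. In a fit of these 6 libraries the calls were 2 and 5 of the 10 tested. The 2 that rose are of the NKR-P1 family. Klrb1c, the gene of the NK1.1 antigen of other mouse strains, was at 43.3, 34.1 and 39.4 CPM in NKT17 and 2.66, 3.32 and 0.485 CPM in NKT2 (log2 fold change 4.19 ± 0.41, adjusted p = 4.97e-08). Klrb1f was at 58.96, 70.8 and 74.4 against 2.45, 5.59 and 4.20 CPM. The Ly49 family gene Klra5 was at 0.195, 0.522 and 0 CPM in NKT17 and 40.3, 29.5 and 16.5 CPM in NKT2, at least 56.8-fold lower in NKT17 (adjusted p = 9.33e-08). Its mean in NKT2 was 3.80% of that in WT NKT1, and reads of this family of near-identical genes may be split among its members. Nkg7, a granule protein, was at 3.71, 1.39 and 2.33 against 32.7, 13.6 and 20.9 CPM (log2 fold change -3.18 ± 0.77, adjusted p = 0.00886), and its mean in NKT2 was 0.484% of that in WT NKT1. Ifng was at 0.195, 0.174 and 0 against 2.66, 1.75 and 3.56 CPM, 1.22% of the NKT1 mean in NKT2. The share of these NK and NKT1 genes that NKT1 cells within the NKT2 gate would hold was not tested. Klrb1c differed from them: it was at 42.2 to 45.7 CPM in NKT1 and at 34.1 to 43.3 CPM in NKT17.

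Cell cycle genes were lower in NKT17. Of 58 tested, 34 (58.6%) were called lower and 1 (1.72%) higher, against 8.97% and 11.0% of all genes. The median log2 fold change was -0.96. The summed level of the list was 3890, 3272 and 3260 CPM in NKT17 and 6139, 5153 and 5974 CPM in NKT2, so the groups did not overlap. Replication genes were among them, with Mcm6, part of the replicative helicase, at 136, 129 and 139 CPM in NKT17 and 337, 303 and 308 CPM in NKT2 (log2 fold change -1.23 ± 0.15, adjusted p = 1.37e-06). Genes of mitosis such as Top2a (68.9, 27.1 and 37.6 against 133, 70.6 and 113 CPM), Mki67 (16.01, 8.69 and 14.3 against 37.4, 22.7 and 26.03 CPM) and Kif11 (9.76, 6.61 and 12.5 against 45.2, 17.1 and 50.8 CPM) fell too, and within each group replicate 2 held the lowest level of all 3. Ccne1, the G1/S cyclin, was at 9.57, 10.8 and 11.5 against 45.2, 23.2 and 42.7 CPM. Cdc6, a loader of the helicase, was at 10.3, 9.22 and 17.6 against 45.99, 30.9 and 46.9 CPM. The gene called higher was Cdkn1b, which encodes the cell cycle inhibitor p27, at 37.3, 41.9 and 42.1 against 20.4, 28.5 and 27.00 CPM (log2 fold change 0.67 ± 0.16, adjusted p = 0.00346); without NKT2 replicate 1 its fold change was 0.55, under the minimum.

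Genes of survival showed no common direction, 4 of 21 being higher (19.0%) and 3 lower (14.3%), against 11.0% and 8.97% of all genes. The pro-apoptotic Bik was at 46.7, 56.3 and 60.8 CPM in NKT17 and 2.04, 2.45 and 2.91 CPM in NKT2 (log2 fold change 4.45 ± 0.27, adjusted p = 2.45e-11). Bid, also pro-apoptotic, fell, with 19.1, 26.3 and 24.3 against 47.4, 69.7 and 65.5 CPM. Bcl2a1a, an anti-apoptotic relative of Bcl2 with near-identical copies among which reads may be split, was at 41.8, 59.8 and 38.7 against 3.27, 1.22 and 3.39 CPM. Its relative Bcl2a1d was at 57.6, 72.5 and 43.2 against 30.9, 29.5 and 31.7 CPM. Bcl2 was at 12.7, 7.83 and 22.2 against 19.8, 5.24 and 9.86 CPM and was not called (adjusted p = 0.678).

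Ribosomal protein genes, a list drawn from gene symbols after the files had been read, were lower in NKT17 as a block. Of 76 tested, 61 (80.3%) were called lower, against 8.97% of all genes, and 0 higher. The 3 libraries of each group did not overlap at 74 of the 76, against 37.2% of all genes, and the median fold change was -0.68, a narrow shift compared with the lists above. Rpsa, of the small subunit, was at 1049.7, 1204 and 776 CPM in NKT17 and 2362, 2115 and 1996 CPM in NKT2 (log2 fold change -1.10 ± 0.18, adjusted p = 0.000203). Rpl3, of the large subunit, was at 526, 593 and 456 against 1022, 922 and 967 CPM (log2 fold change -0.89 ± 0.12, adjusted p = 4.71e-06). The list summed to 48410, 57496 and 37632 CPM in NKT17 and 76105, 79893 and 74181 CPM in NKT2. NKT17 replicate 3 was the lowest: without it 19 genes were called and the median was -0.55, and without NKT17 replicate 2, the highest, 72 were called. Under the other scalings 61 to 70 genes were called lower and 0 higher. Because these transcripts are abundant and have many pseudogene copies, their counts may be shared with copies.

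**Figure D4:**
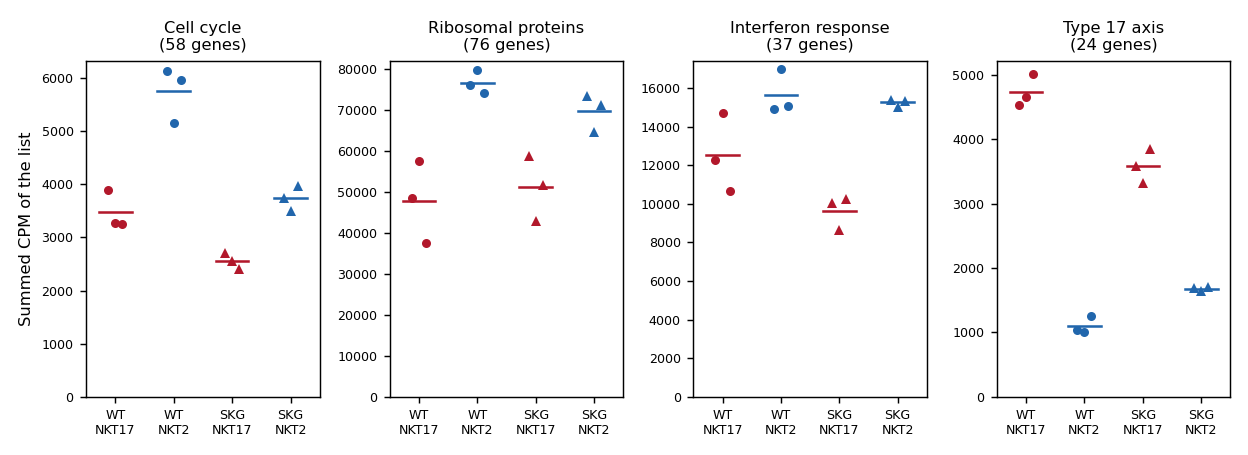
Summed CPM of 4 gene lists in each NKT17 (red) and NKT2 (blue) library of WT (circles) and SKG (triangles) mice, with a line at each group's mean and the y axis from 0. The cell cycle and ribosomal protein sums of all NKT17 libraries lie below those of all NKT2 libraries of the same genotype, and the type 17 sums above them.

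Interferon response genes also leaned towards NKT2, with 13 of 37 (35.1%) called lower, against 8.97% of all genes. Only 1 (2.70%) was called higher, against 11.0%, and the median was -0.50. None was called higher without NKT17 replicate 1, without NKT2 replicate 3 or with upper-quartile scaling, and 15 or 16 were then lower. Without NKT17 replicate 3 the lean was weaker, with 10 called lower and a median of -0.35. Oas3, an antiviral enzyme, was at 32.99, 20.5 and 18.1 CPM in NKT17 and 89.7, 90.2 and 92.1 CPM in NKT2 (log2 fold change -1.93 ± 0.22, adjusted p = 4.74e-07). Iigp1, an interferon-inducible GTPase, was at 5.47, 3.65 and 2.33 against 32.9, 55.7 and 40.1 CPM. Ifih1, a sensor of viral RNA, was at 11.3, 11.5 and 10.7 against 29.2, 29.9 and 31.4 CPM. The interferon receptor chains did not share one direction, since Ifngr1 was higher and Ifnar1 lower in NKT17.

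In glycolysis and hypoxia 4 of 29 genes (13.8%) were higher and 4 (13.8%) lower, against 11.0% and 8.97% of all genes. Pfkp, of glycolysis, rose, with 549.9, 526 and 538 against 323, 301 and 305 CPM. Tpi1 of the same pathway fell, with 182, 176 and 149.7 against 386, 344 and 300.4 CPM, and so did the lactate carrier Slc16a1, with 26.4, 35.3 and 33.2 against 77.9, 76.7 and 86.8 CPM. Of 37 genes of sterol and fatty acid synthesis 5 were higher and 6 lower, or 3 and 5 when a gene needed 50 counts on average. Among them were Acaca (46.7, 43.3 and 61.3 against 32.3, 20.6 and 20.4 CPM) and Scd2 (143, 126 and 129.7 against 232, 223 and 297 CPM), both of fatty acid synthesis and called in opposite directions. Of 18 amino acid and iron carriers 2 were higher (11.1%) and 1 lower (5.56%), near the shares of all genes. Slc6a13, a carrier of GABA and taurine, was at 2.54, 7.13 and 7.00 against 0.204, 0 and 0 CPM, at least 10.3-fold higher (adjusted p = 0.000293). Slc11a2, which carries iron, was at 294, 284 and 317 CPM in NKT17 and 65.8, 53.5 and 80.5 CPM in NKT2 (log2 fold change 2.16 ± 0.13, adjusted p = 1.71e-11). Slc7a5, a carrier of large neutral amino acids, fell with 45.9, 55.99 and 63.96 against 109, 106 and 133 CPM, and without NKT17 replicate 1, NKT17 replicate 3 or NKT2 replicate 2 the lower calls were 2.

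Immediate-early and stress genes were checked because handling of cells can induce them. Of 17 tested, 4 (23.5%) were called higher in NKT17, against 11.0% of all genes, and 0 lower. Fos was at 937, 254 and 1103 CPM in NKT17 and 191, 81.96 and 194 CPM in NKT2 (log2 fold change 2.29 ± 0.77, adjusted p = 0.0494). Zfp36 was at 186, 135 and 280.1 against 97.1, 82.5 and 121 CPM. The call of Fos was lost in a fit of these 6 libraries alone and without any of 4 single libraries, NKT17 replicates 1 and 3 and NKT2 replicates 2 and 3. Without NKT2 replicate 2 or without NKT17 replicate 3 only 1 of the list was called, and with the replicate pairing as a block the number was 7, or 10 in a fit of these 6 libraries. DESeq2 called 8. Their part in the other results was not tested.

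The same contrast was made in SKG mice, in which 1171 genes (10.5%) were higher and 919 (8.27%) lower in NKT17. Of the 1226 genes called higher in WT, 789 were also called higher in SKG, which is 64.4% of the WT and 67.4% of the SKG calls, and 3 were called lower. Of the 997 called lower in WT, 560 were also lower in SKG, or 56.2% of the WT and 60.9% of the SKG calls, and 11 were called higher. In all, 1171 (95.5%) and 923 (92.6%) of the WT calls had the same sign in SKG. The 2 sets of libraries are separate, but both share the sorting gates and the library method. A token in the sample titles is also shared by WT replicate 2 and SKG replicate 1, and by WT replicate 3 and SKG replicate 2. What the token marks is not stated, so the 2 sets may not be fully independent.

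Several lists gave the same direction in SKG. All 10 NKT17 markers were again higher. Sdc1 among them was part of the gate in SKG as well, and the list was written with earlier results known. Lower were 34 of 58 cell cycle genes (median -1.26) and 23 of 37 interferon response genes (median -0.82), against 8.27% of all genes. Ribosomal protein genes gave 9 calls, all lower, and a median of -0.44, and none of the 76 had a called difference between the genotypes.

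The difference of the contrast between SKG and WT was tested for each gene and called for 244 (2.19%), with 127 (1.14%) higher and 117 (1.05%) lower in SKG. The clearest was Ttc39c, which was at 8.20, 8.35 and 5.76 CPM in NKT17 and 93.00, 83.2 and 78.1 CPM in NKT2 in WT (log2 fold change -3.52 ± 0.20, adjusted p = 9.47e-12). In SKG it was at 36.7, 31.6 and 34.7 CPM in NKT17 and 14.5, 21.9 and 13.8 CPM in NKT2, a log2 fold change of 1.04 ± 0.19, and the difference between the contrasts was 4.55 ± 0.27, adjusted p = 6.74e-10. Dtx1, a regulator of Notch signalling, was at 54.3, 37.9 and 49.5 CPM in NKT17 and 0.409, 0.350 and 0.323 CPM in NKT2 in WT and 50.4, 48.2 and 49.2 CPM in NKT17 and 25.8, 22.9 and 21.2 CPM in NKT2 in SKG (difference -5.88 ± 0.53, adjusted p = 5.86e-07). Qpct, an enzyme that modifies the N-terminus of proteins, was at 91.8, 115 and 104 against 18.4, 14.9 and 19.4 CPM in WT and 287, 344 and 290.0 against 235, 288 and 219 CPM in SKG, so that the groups separated in WT only (difference -2.25 ± 0.19, adjusted p = 2e-07).

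Among the genes described above, the contrast was smaller in SKG for Il2ra, at 157, 152 and 138 CPM in NKT17 and 21.6, 17.03 and 38.2 CPM in NKT2 (difference -3.79 ± 0.53, adjusted p = 0.00055). Tnfrsf25 was at 268, 234 and 280.2 CPM in NKT17 and 41.8, 69.3 and 51.4 CPM in NKT2, also a smaller contrast (difference -2.59 ± 0.31), and so was that of Il7r (-0.93 ± 0.14). All SKG NKT2 libraries lay above those of WT for Il2ra and Tnfrsf25. By contrast, Sox13 was at 132, 84.97 and 134 CPM in NKT17 and 7.71, 5.29 and 4.18 CPM in NKT2, a wider contrast than in WT (difference 3.20 ± 0.43, adjusted p = 0.000681). Lef1 was at 8.22, 10.3 and 7.51 CPM in NKT17 and 162, 125 and 189 CPM in NKT2, with its fall deepened by -2.09 ± 0.29. S1pr1 fell less in SKG, with 24.5, 16.6 and 20.5 against 53.3, 66.2 and 54.3 CPM (difference 3.00 ± 0.58, adjusted p = 0.00838). Itgb3, which had overlapped in WT, was higher in NKT17 of SKG mice, at 132, 151 and 162 against 25.5, 41.1 and 22.96 CPM (difference 2.32 ± 0.41, adjusted p = 0.00598).

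**Figure D5:**
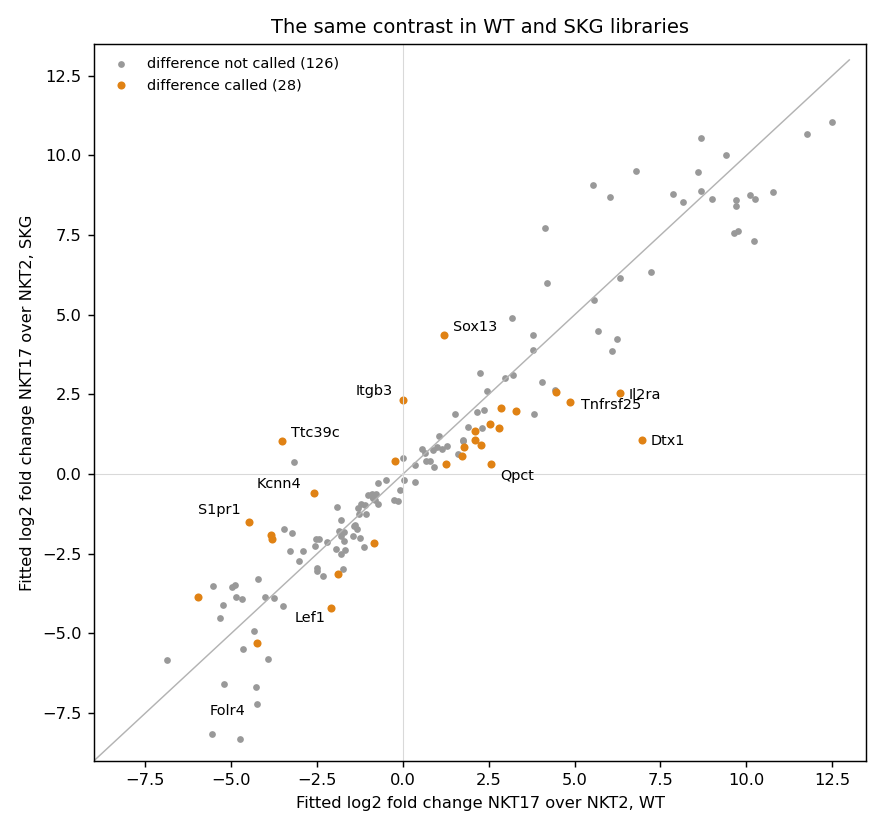
Fitted log2 fold change NKT17 over NKT2 in WT (x axis) and in SKG (y axis) of 154 genes named in the text, 1 point a gene, orange where the difference between the genotypes was called, with a grey line where both would be equal. Most points follow the line, Ttc39c lies left of 0 in WT and above 0 in SKG, and Dtx1, Il2ra and Tnfrsf25 lie below the line.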

How the data were processed

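RNA-seq counts of 18 libraries in 6 groups of 3 were used; groups came from the labels. The authors deposited raw counts per gene symbol, obtained from TopHat alignments by the union mode of htseq-count. The paper names build mm9, whereas the submitters' processing notes list mm10 and hg19 beside TopHat 1.4.1, Bowtie 1.0.0 and HTSeq 0.7.1; annotation and strand setting are not given in the sources used here. A further 2 columns match no sample of the series and were not used. Gene coordinates are from GENCODE M1 (NCBIM37), joined by symbol.

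Of 15582 genes with a count, 11118 passed filterByExpr. edgeR 4.0.16 (R 4.3.3) fitted a robust quasi-likelihood model to all 6 groups after TMM scaling (factors 0.928 to 1.07), with 12 residual degrees of freedom and a biological coefficient of variation of 21.1%. Tests were two-sided; the standard error is the fold change over the root of F. A group with no library above 3 counts was set to 3 counts per library, and the fold is then a lower bound that covers counting error only. The pipeline was first tested on simulated data.

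A token in the sample titles pairs the WT libraries: deviations from group means of libraries with the same token correlated at 0.351, 0.239 and 0.219 across genes, and those with different tokens at -0.229 to 0.033. In SKG the same-token values were 0.092, 0.214 and 0.094, and the others -0.129 to 0.046. Alternatives were DESeq2 1.42.0, other scalings, filters and thresholds, a fit of the 6 libraries, the replicate block, and leaving out each library.

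Members and gene lists were chosen with earlier results of these data known. Named genes are the 12 largest called rises and falls with at least 50 CPM in the higher group and no overlap of libraries; in each list up to 4 called genes each way with at least 20 CPM and the one of at least 50 CPM that changed least; the NKT17 and NKT2 markers; and, for the difference between genotypes, the 5 smallest adjusted p-values among these genes and the 3 smallest over all genes. Not all of them are discussed, and some results are not reported here. The ribosomal protein list and the genes Maf, Rora, Sox13, Il22, Il7r, Ccr4, Mki67, Top2a, Mcm6, Cd27, Tcf7, Id3, Runx2, Batf, Ahr, Ccr7, Il21, Cd28, Cd69, Myc, Bcl2, Kcnc1, Cpe, Rpsa, Ifng, Epcam, Cd8b1, Cd79b, Slc6a13, Fasl, Tnfsf8 and Cd40lg were chosen after their values were seen.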

Additional observations from a re-analysis of the deposited data

Results flagged for a closer look

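The genes below stood out because the NKT17 over NKT2 fold change differed between SKG and WT in the test of that difference (edgeR's quasi-likelihood test, adjusted p under 0.1 and at least 1.5-fold). Of the 244 called differences, only the 28 among the genes followed in the text are given. Values are SKG minus WT on the log2 scale, so a positive value means a higher fold change in SKG. Groups of 3 libraries are too small for the check of single outlying libraries, and it was not run.

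Among these genes the contrast changed sign for Ttc39c (4.55 ± 0.27), with no overlap of libraries in either genotype. For Icos, whose protein was part of the gate, the fold change was -0.25 in WT and 0.40 in SKG, neither called, with a difference of 0.65 ± 0.19. Itgb3 (2.32 ± 0.41) was not called in WT and was called higher in SKG.

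Genes that were higher in NKT17 in WT and rose less or were not called in SKG were Dtx1 (-5.88 ± 0.53; its WT NKT2 libraries held at most 3 counts, so this fitted value depends on the fit's treatment of low counts), Il2ra (-3.79 ± 0.53), Tnfrsf25 (-2.59 ± 0.31), Qpct (-2.25 ± 0.19), Bik (-1.87 ± 0.35), Tnf (-1.35 ± 0.35), Gpr183 (-1.34 ± 0.33) and Il18rap (-1.32 ± 0.28). Smaller differences of the same kind were found for Cd96 (-1.16 ± 0.15), Rora (-1.02 ± 0.26), Rasgrp1 (-0.96 ± 0.24), Ltb (-0.94 ± 0.16), Il7r (-0.93 ± 0.14), Ifngr1 (-0.77 ± 0.16) and Cxcr6 (-0.74 ± 0.17). Sox13 (3.20 ± 0.43) rose more in SKG.

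Among genes lower in NKT17 in WT, the fall was smaller in SKG for S1pr1 (3.00 ± 0.58), Tspan9 (2.13 ± 0.58), Kcnn4 (1.99 ± 0.48), Ccr8 (1.92 ± 0.42) and Ubash3a (1.77 ± 0.38). It was larger in SKG for Lef1 (-2.09 ± 0.29), Id3 (-1.32 ± 0.33), Il21r (-1.26 ± 0.18) and Ms4a4b (-1.05 ± 0.25). The call of this difference was lost under at least 1 alternative for Cxcr6, Ms4a4b, Rasgrp1, Tnf, Rora, Gpr183, Id3, Kcnn4, Tspan9 and Icos, always with the same sign.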

How the results depend on the processing

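The number of genes called between WT NKT17 and WT NKT2, 2223, ranged from 1687, when a gene needed 50 counts on average, to 3117 with the adjusted p alone, and from 2000 to 2249 when each library was left out. DESeq2 gave 2297, the fit of the 6 libraries 2148, and a threshold of 0.05 for the adjusted p 1960. The share called higher was 49.5% with upper-quartile scaling and 55.2% in the reported fit. Without a fold-change minimum the genes called lower were 1514 in WT and 1412 in SKG. The 244 called differences between the genotypes became 155 at an adjusted p under 0.05, 76 of them higher in SKG, and 157 to 256 when each library was left out, with 75 to 136 higher and 75 to 120 lower. Leaving out SKG NKT17 replicate 1 gave 157, with 82 higher and 75 lower. The higher differences numbered 75 without SKG NKT2 replicate 1, 78 without WT NKT2 replicate 3 or SKG NKT2 replicate 3, and 80 without SKG NKT17 replicate 3. The leave-one-out fits for SKG and for the difference were added after the data had been seen. With DESeq2 the differences numbered 343 and with the replicate block 277.

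The replicate block gave 2320 calls in WT with all libraries and 2439 in a fit of the 6. The alternatives were followed for 154 of the genes named in the text. Among these the replicate block changed no other call than that of Il17rb, in the 6-library fit. Of the 154 genes, 139 kept sign and call under each alternative that tested them. Il22 was tested in 13 of the 16, and Il13, Il21, Tnfrsf4, Cd8b1, Epcam and Slc6a13 in 15. Fos lost its call in 5 alternatives (fold change 1.92 to 2.72), Cst3 in 3, Id3, Cdkn1b and Cd8b1 in 1 each, and Il17ra, Il17rb, Il2rb and Tcf7, not called as reported, passed in 1 to 3. Genes with a fold change near 0 changed sign without being called. Gata3 was at 0.01 in the fit of 6 libraries and -0.16 to 0.09 without single libraries. Csk was at -0.04 with upper-quartile scaling and -0.06 to 0.07 without single libraries. Itgb3 was at 0.00 with the replicate block and in the fit of 6 libraries, 0.01 with both, and -0.12 to 0.16 without single libraries. Bcl2 ranged from -0.17 to 0.94, Nr4a1 from -0.45 to 0.43 and Tnfsf11 from -0.29 to 0.11. At this depth a gene at 3 counts lies near 0.5 CPM, so genes under that level in both groups could not be compared.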

Other observations

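Of 28 tested genes of ion channels and of proteins best known from neurons, 13 (46.4%) were called higher in NKT17 and 6 (21.4%) lower. The shares over all genes were 11.0% and 8.97%, and the median log2 fold change of the list was 0.84. The potassium leak channel Kcnk1 was at 124, 94.8 and 152 CPM in NKT17 and 0, 0 and 0 CPM in NKT2, and the voltage-gated potassium channel Kcnc1 at 30.5, 17.9 and 29.4 against 0, 0 and 0 CPM. Cpe, a carboxypeptidase that processes neuropeptides, was at 65.01, 73.6 and 106 against 0, 0 and 0.485 CPM, at least 151-fold higher (edgeR adjusted p = 1.15e-11). No read of Kcnk1 or Kcnc1 was found in any NKT2 library. On the other side, the calcium-activated potassium channel Kcnn4 was at 9.37, 46.95 and 29.8 CPM in NKT17 and 142, 186 and 194 CPM in NKT2 (log2 fold change -2.59 ± 0.36, adjusted p = 0.000102). The ATP-gated channel P2rx7 was at 4.88, 6.43 and 16.5 against 39.04, 22.2 and 30.2 CPM, and Vipr1, a receptor of vasoactive intestinal peptide, at 7.03, 9.04 and 10.8 against 22.1, 22.2 and 23.4 CPM.

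Genes of cytotoxic granules and death ligands were mixed. Of 14, 3 (21.4%) were called higher and 6 (42.9%) lower, against 11.0% and 8.97% of all genes. Serpinb9, an inhibitor of granzyme B, was at 36.9, 36.3 and 56.7 CPM in NKT17 and 76.6, 87.2 and 66.4 CPM in NKT2 (log2 fold change -0.82 ± 0.20, adjusted p = 0.00444). Of 8 markers of mature CD4 and regulatory T cells, 7 were tested, and Foxp3 had no read in the 6 libraries. Il2ra (1 of 7, 14.3%) was called higher and 3 (42.9%) lower, against 11.0% and 8.97% of all genes. The calls were 2 and 2 with the replicate block in a fit of the 6 libraries. Markers of the earliest iNKT stage gave 2 higher (28.6%) and 4 lower (57.1%) of 7 tested, against 11.0% and 8.97% of all genes. The calls were 1 and 4 without NKT17 replicate 1 or 2 or NKT2 replicate 1 or 2. The lower genes included Itm2a at 0.781, 4.52 and 8.92 against 33.9, 25.5 and 27.2 CPM. Itm2a was highest in the WT NKT1 libraries, at 341 to 440 CPM, so its level does not mark the earliest stage alone.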
